A study of Mus musculus with 6 samples.

Results

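The 10 genes described here encode chaperones of the muscle cell. They comprise 7 small heat shock proteins (*Hspb1*, *Hspb2*, *Hspb3*, *Hspb6*, *Hspb7*, *Hspb8* and *Cryab*) and 3 genes of myosin assembly (*Unc45b*, *Smyd1* and *Hsp90aa1*). They were chosen by name, matched to Ensembl gene identifiers, and are 10 of the 23231 genes with a count in any library. RNA-Seq was performed on C2C12 cells, an established line of mouse myoblasts that fuses into myotubes when serum is lowered. Both groups carried the lentiviral dCas9-KRAB repressor, a catalytically inactive Cas9 fused to the KRAB silencing domain, and had been transduced at an MOI of 100, selected with 2 µg/ml puromycin and differentiated in 2% horse serum for 5 days. The 3 dCas9-KRAB libraries came from cells without enhancer sgRNAs, and the 3 dCas9-KRAB-En5 libraries from cells that also expressed 2 sgRNAs against Myog-En5, an enhancer of *Myog*. The comparison asked what repression of this enhancer did to the transcriptome. Both groups were transduced, selected populations and not clones, untransduced cells were not analysed here, and the labels number the replicates without saying whether they were separate cultures, so each p-value measures only the spread between these samples.

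Small heat shock proteins hold unfolding proteins in a soluble state without using ATP, and several are abundant in striated muscle, where they bind actin, desmin, titin and filamin C. Folding of the myosin motor domain needs UNC45B together with HSP90, and the methyltransferase SMYD1 acts beside them in sarcomere assembly. Some small heat shock protein genes are switched on during muscle differentiation, whereas others respond chiefly to heat shock factors.

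Library totals ranged from 40554323 to 73988425 counts in dCas9-KRAB cells and from 31831093 to 40384720 in dCas9-KRAB-En5 cells. *Myog*, the gene whose enhancer was targeted, stood at 1065, 1224 and 1118 TPM (a level scaled by gene length and library) in the dCas9-KRAB libraries, and had 12, 0 and 0 counts in the dCas9-KRAB-En5 libraries. dCas9-KRAB-En5 replicate 3 stood apart. It listed 13991 genes against 17084 to 19395 elsewhere, and ribosomal protein genes took 25.8% of its counts against 10.8% to 19.4%. The cell type on the labels was checked against marker lists. The 8 myotube markers summed to between 13696 and 15876 TPM in dCas9-KRAB libraries and to between 2.41 and 11.9 TPM in dCas9-KRAB-En5 libraries. The 8 myoblast markers also summed to less in dCas9-KRAB-En5 libraries (14.5 to 43.2 TPM against 537 to 2049 TPM), and *Myod1* was at most 0.0761 TPM there. The 20 macrophage markers summed to between 6927 and 9134 TPM in dCas9-KRAB libraries and to between 14230 and 22151 TPM in dCas9-KRAB-En5 libraries, with 11 and 12 of the 20 at 10 TPM or more in every library of the respective group, and with *Mrc1* and *Cd163* at 0 in all. Of the 16 macrophage markers tested, 1 was called higher. Of the myoblast markers, *Myf5* and *Myod1* were near 0 in dCas9-KRAB-En5 libraries, while *Itga7* (9.75, 9.01 and 27.7 TPM) and *Des* (7.87, 5.31 and 13.9 TPM) were reduced but present, and *Pax7* and *Chodl* were at or near 0 in both groups. *Lyz2* made up much of the macrophage sum (1896 to 4815 TPM against 6938 to 13210 TPM). Like *Lyz2*, *Cd68* (281 to 478 against 621 to 1071 TPM) and *Adgre1* (7.62 to 17.7 against 29.6 to 135 TPM) were higher in every dCas9-KRAB-En5 library. In contrast, *Fcgr1*, *Mpeg1* and *Aif1* were lower in every dCas9-KRAB-En5 library than in any dCas9-KRAB library. The part of these markers in the results was not tested.

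Of the 10 members, 9 passed the filter on low counts and were tested, and 7 of these were called lower in dCas9-KRAB-En5 cells (edgeR's quasi-likelihood test, Benjamini-Hochberg adjusted p of at most 0.01 and a change of at least 1 on the log2 scale). Over all 14378 genes tested, 4.67% were called lower. No member was called higher, against 1.52% of all genes. At an unadjusted p under 0.05, edgeR placed 0 members higher, and DESeq2 and limma called 0. The 7 were *Hspb1*, *Hspb2*, *Hspb7*, *Hspb8*, *Cryab*, *Unc45b* and *Smyd1*. *Hspb6* and *Hsp90aa1* did not pass, and *Hspb3* had too few counts. With the replicate number as a block, *Hspb6* was called as well (adjusted p = 0.00698, edgeR). Without dCas9-KRAB-En5 replicate 3 all 7 stayed called, with log2 fold changes from -4.47 (*Hspb1*) to -9.34 (*Smyd1*). *Unc45b* and *Smyd1* passed the filter through their dCas9-KRAB counts alone and so had to differ. *Hspb7*, with 0 counts in dCas9-KRAB-En5 replicate 3, passed it only with the help of dCas9-KRAB libraries, which favoured a difference. Among the 6 members with at least 10 counts in every library, 4 were called lower in a fit of such genes, of which 2.91% were called lower. The median log2 fold change of the 9 members was -4.85, and the same with the 3 members of few counts set at their pooled ratios, beside 0.08 over all genes tested. All dCas9-KRAB-En5 libraries lay below all dCas9-KRAB libraries in TPM for 9 of the 10 members, as they did for 19.7% of genes tested. In these bulk samples, less RNA of a gene per cell and fewer cells of a type cannot be told apart.

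**Figure D1:**
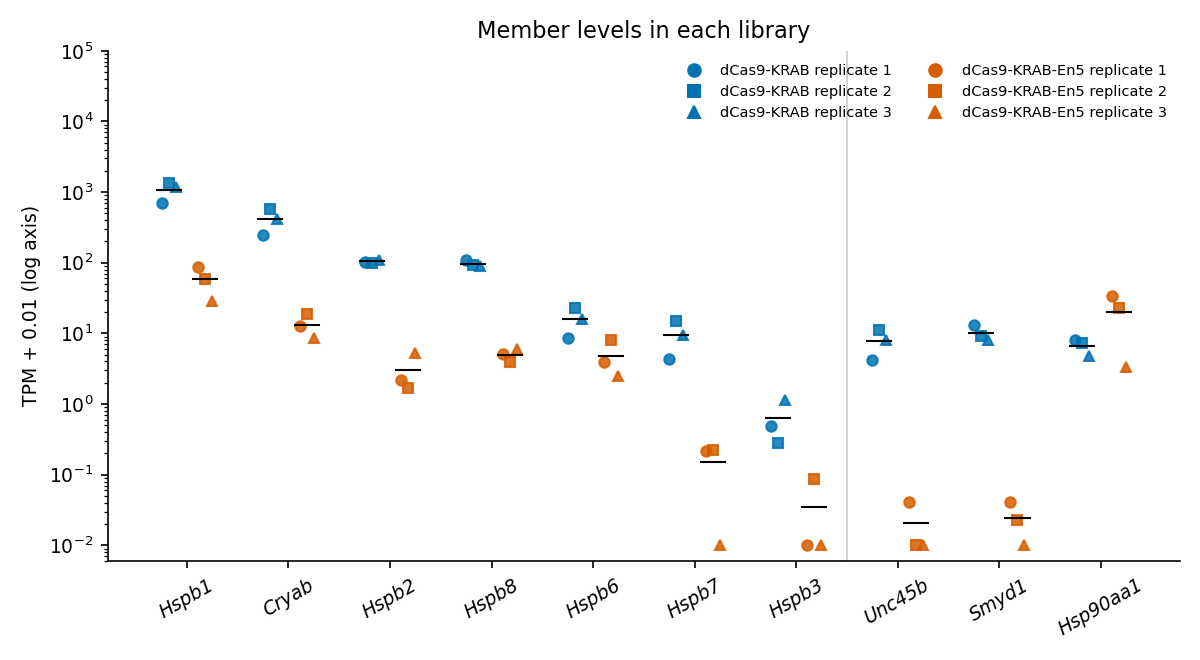
TPM plus 0.01 of each member in each library on a log axis; blue marks dCas9-KRAB and orange dCas9-KRAB-En5 libraries, symbols mark the replicate and black bars the group mean (n = 3). The groups do not overlap for any member except *Hsp90aa1*, and points at the bottom of the axis are libraries with 0 counts.

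Promoters were compared because most of the members fell together. RefSeq windows of the GRCm38.p6 build were at hand for 7 members, in 8 windows, as *Hspb6* has a pair of annotated starts; *Hspb2*, *Cryab* and *Hsp90aa1* were not in the table. Shown are the 3 windows outside annotated exons that matched a heat shock element, TATA box or MEF2 site, each being the 250 bases before the annotated start, on the gene's strand and read 5′ to 3′. Capitals mark GAANNTTC, the core of a heat shock element, the TATA box TATAAA on either strand, and the MEF2 site. The *Hspb1* window lies at chr5:135887669-135887918 (plus strand), that of *Hspb3* at chr13:113663677-113663926 (minus strand) and that of *Smyd1* at chr6:71262282-71262531 (minus strand).
Hspb1: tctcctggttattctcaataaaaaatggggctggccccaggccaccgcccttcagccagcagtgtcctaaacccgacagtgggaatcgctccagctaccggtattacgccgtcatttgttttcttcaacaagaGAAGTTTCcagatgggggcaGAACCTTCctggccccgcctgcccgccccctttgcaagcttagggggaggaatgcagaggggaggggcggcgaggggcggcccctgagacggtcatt
Hspb3: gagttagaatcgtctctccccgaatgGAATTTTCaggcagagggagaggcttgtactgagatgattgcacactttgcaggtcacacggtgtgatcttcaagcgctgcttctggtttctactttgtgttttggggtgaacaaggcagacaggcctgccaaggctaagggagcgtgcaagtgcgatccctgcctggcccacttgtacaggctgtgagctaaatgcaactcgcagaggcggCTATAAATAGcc
Smyd1: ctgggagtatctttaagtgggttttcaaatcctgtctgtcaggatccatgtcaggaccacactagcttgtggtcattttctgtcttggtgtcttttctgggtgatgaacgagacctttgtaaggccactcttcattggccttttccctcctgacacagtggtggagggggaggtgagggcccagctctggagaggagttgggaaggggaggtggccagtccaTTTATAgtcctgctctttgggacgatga

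*Hspb1*, the most abundant member, carried 2 matches to GAANNTTC, which began 117 and 97 bases before its start. *Hspb3* carried 1, at 224 bases, and also the only MEF2 site, at 12 bases, which overlaps its TATAAA. *Smyd1* carried TATAAA on the reverse strand at 28 bases and no heat shock element. Both strands of all 8 windows were searched. GAANNTTC occurred in 3 windows (*Hspb1*, *Hspb3* and 1 of *Hspb6*) and in 6.69% of 32851 promoters, and TATAAA in 3 windows (*Hspb3*, *Smyd1* and 1 of *Hspb6*) and in 12.4% of promoters. The MEF2 site occurred in 2.92% of promoters. The E-box CANNTG was found in 5 windows (*Hspb1*, *Hspb3*, *Hspb7*, *Hspb8* and *Unc45b*) and in 66.2% of promoters, the CCAAT box in 2 (*Smyd1* and 1 of *Hspb6*) and in 33.8%. TTCNNGAA, CAGCTG and the CArG box were in none of the 8 windows and in 7.17%, 13.0% and 1.47% of promoters. A match describes the letters of the window and is no evidence that a factor binds there.

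*Hspb1* (ENSMUSG00000004951, chromosome 5, 135887919 to 135889563) encodes the chaperone known as HSP25 in mouse, which also binds actin filaments. It stood at 709, 1354 and 1181 TPM in dCas9-KRAB libraries and at 86.8, 59.7 and 28.7 TPM in dCas9-KRAB-En5 libraries. Every dCas9-KRAB library was above every dCas9-KRAB-En5 library, and the lowest of the former exceeded the highest of the latter 8.18-fold. The fitted level was 21.7-fold lower in dCas9-KRAB-En5 cells (log2 fold change -4.44, SE 0.54, adjusted p = 0.00032, edgeR). Even so, at 58.4 ± 29.1 TPM (SD, n = 3) it had the highest mean of the members there. Of the 50-base words in its transcripts, 50.1% also occur elsewhere in the transcriptome, mainly in the processed pseudogene *Hsp25-ps1* and in *Gm9817*, and how reads matching several places were counted is not given in the sources used here. *Hsp25-ps1* held 310 counts in dCas9-KRAB libraries and 8 in dCas9-KRAB-En5 libraries, and *Gm9817* held 0, so the counts of *Hspb1* are uncertain to the extent that such reads were dropped.

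*Cryab* (ENSMUSG00000032060, chromosome 9, 50751325 to 50756636) encodes αB-crystallin, the chaperone of desmin and titin. Its level was 250, 576 and 410 TPM in dCas9-KRAB libraries and 12.5, 18.7 and 8.69 TPM in dCas9-KRAB-En5 libraries. The groups were separated 13.4-fold at their nearest libraries. *Cryab* fell 34.5-fold (log2 fold change -5.11, SE 0.54, adjusted p = 0.000131, edgeR).

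*Hspb2* (ENSMUSG00000038086, chromosome 9, 50751078 to 50752354) encodes the chaperone that binds myotonic dystrophy protein kinase. It is the head-to-head neighbour of *Cryab*, on the opposite strand. *Hspb2* was nearly level among dCas9-KRAB libraries at 102, 100 and 110 TPM. In dCas9-KRAB-En5 libraries it stood at 2.21, 1.70 and 5.24 TPM, highest in replicate 3, and it fell 28.9-fold (log2 fold change -4.85, SE 0.77, adjusted p = 0.00196, edgeR). Without replicate 3 of dCas9-KRAB-En5 the log2 fold change was -6.35 (adjusted p = 2.21e-05, edgeR), and without dCas9-KRAB replicate 1 the adjusted p was 0.0288 and the call did not hold. The annotated genes overlap by 1030 bases and share 252 exon bases, which are 30.2% of the exon length of *Hspb2* and 17.0% of that of *Cryab*. Whether featureCounts used the strand is not stated in the sources used here, so it is not known here to which gene reads in this stretch were assigned.

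The ratio of *Hspb2* to *Cryab* was therefore examined in each library. On the log2 scale of TPM plus 0.1 it was -1.29, -2.52 and -1.89 in dCas9-KRAB libraries and -2.45, -3.39 and -0.72 in dCas9-KRAB-En5 libraries. The groups overlapped, and the difference of -0.29 gave p = 0.9 (exact permutation test, two-sided, where the smallest p for 3 against 3 is 0.1). Its sign turned to 0.0309 with a pseudocount of 1 and to 0.02 or 0.31 when dCas9-KRAB replicate 1 or dCas9-KRAB-En5 replicate 2 was left out.

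*Hspb8* (ENSMUSG00000041548, chromosome 5, 116408491 to 116422864) encodes the partner of BAG3 in chaperone-assisted autophagy. It stood at 108, 92.1 and 89.8 TPM in dCas9-KRAB libraries and at 5.03, 3.96 and 6.01 TPM in dCas9-KRAB-En5 libraries. In TPM both groups were narrow and lay far apart. On the TMM scale of the test, the dCas9-KRAB-En5 libraries stood at 4.46, 3.04 and 11.5 CPM against 136, 98.3 and 115 CPM. The fall was 18.4-fold (log2 fold change -4.20, SE 0.60, adjusted p = 0.000904, edgeR). As with *Hspb2*, the dCas9-KRAB-En5 maximum was in replicate 3, without which the log2 fold change was -5.04 (adjusted p = 4.55e-05, edgeR). Leaving out dCas9-KRAB replicate 1 raised the adjusted p to 0.0152, so the call did not hold there.

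*Hspb6* (ENSMUSG00000036854, chromosome 7, 30552178 to 30555443) encodes HSP20, a substrate of cyclic nucleotide-dependent kinases in muscle. Its levels were 8.69, 22.8 and 15.9 TPM in dCas9-KRAB libraries and 3.98, 8.06 and 2.49 TPM in dCas9-KRAB-En5 libraries. The groups did not overlap, but the lowest dCas9-KRAB library was only 1.08-fold above the highest dCas9-KRAB-En5 library. The log2 fold change of -1.94 (SE 0.49) did not pass the threshold (adjusted p = 0.0211, edgeR). With the replicate number as a block, it was -1.90 (adjusted p = 0.00698, edgeR) and *Hspb6* was called, which made 8 members lower against 6.79% of all genes. Without dCas9-KRAB-En5 replicate 3 it was also called (-2.02, adjusted p = 0.00759, edgeR), again as 1 of 8 members lower, but 14.0% of all genes were then called lower.

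*Hspb7* (ENSMUSG00000006221, chromosome 4, 141420779 to 141425311) encodes the cardiovascular heat shock protein, which binds filamin C. It had 321, 1527 and 1169 counts in dCas9-KRAB libraries (4.27, 14.7 and 9.43 TPM) and 12, 10 and 0 counts in dCas9-KRAB-En5 libraries. All dCas9-KRAB-En5 libraries were close to 0. Pooled over each group, its share of the scaled library sizes was 86.9-fold lower (95% counting interval 57.3 to 139), and the fit gave a log2 fold change of -6.45 (SE 0.89, adjusted p = 0.000775, edgeR).

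*Hspb3* (ENSMUSG00000051456, chromosome 13, 113662896 to 113663676), a gene of 1 exon, encodes the partner of HSPB2 in a hetero-oligomer of muscle. It was the least abundant member, with 10, 8 and 39 counts in dCas9-KRAB libraries and 0, 1 and 0 in dCas9-KRAB-En5 libraries. It failed the filter on low counts. The pooled ratio was 36.1 with a counting interval of 6.23 to 1451. Without the filter the log2 fold change was -4.84 (SE 2.09, adjusted p = 0.105, edgeR), which did not pass. Thus all dCas9-KRAB-En5 libraries were lower, but at this depth a change of *Hspb3* was not shown.

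The 7 small heat shock proteins together summed to 1182, 2160 and 1817 TPM in dCas9-KRAB libraries and to 111, 92.4 and 51.1 TPM in dCas9-KRAB-En5 libraries. The make-up of this sum was similar in its leading gene. *Hspb1* supplied 60.0% to 65.0% in dCas9-KRAB libraries and 56.1% to 78.4% in dCas9-KRAB-En5 libraries. *Cryab* supplied 21.1% to 26.6% and 11.3% to 20.2%, without overlap. The share of *Hspb6* ran the other way, from 0.735% to 1.05% in dCas9-KRAB libraries and from 3.60% to 8.72% in dCas9-KRAB-En5 libraries, the gene with the smallest fitted change of the 6 tested.

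**Figure D2:**
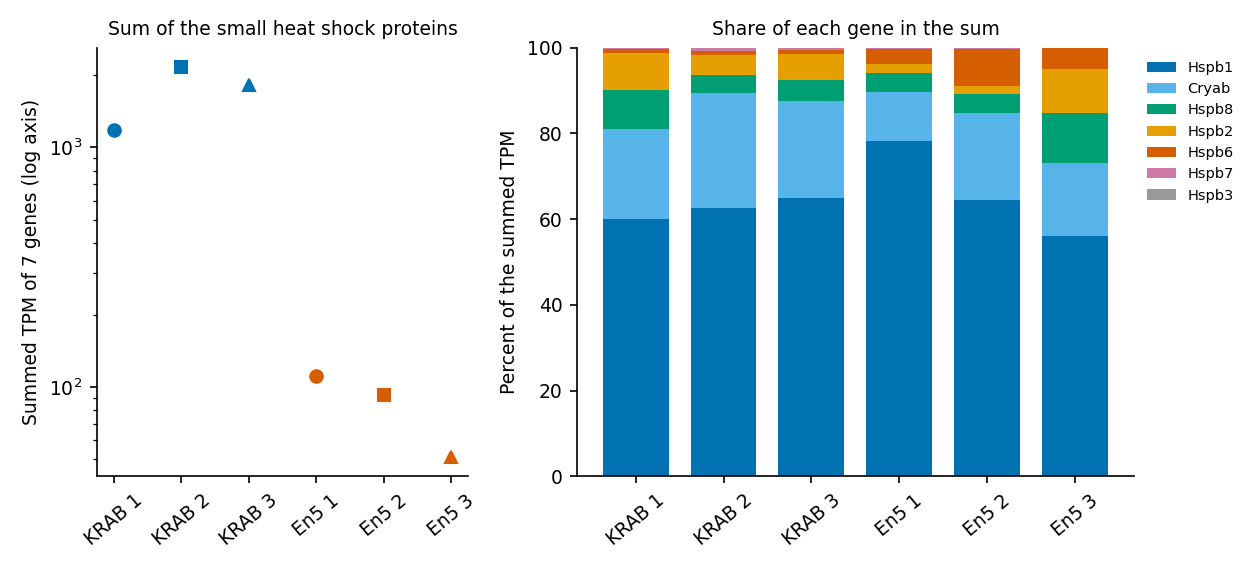
Left, summed TPM of the 7 small heat shock proteins in each library on a log axis. Right, the percent of that sum from each gene in the same libraries; *Hspb1* is the largest part of every bar, and the *Hspb6* part is between 3.60% and 8.72% in dCas9-KRAB-En5 libraries against at most 1.05% in dCas9-KRAB libraries.

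*Unc45b* (ENSMUSG00000018845, chromosome 11, 82910550 to 82943403) encodes the muscle form of the UCS-domain cochaperone that folds myosin. It had 508, 1897 and 1613 counts in dCas9-KRAB libraries (4.17, 11.3 and 8.02 TPM) and 3, 0 and 0 counts in dCas9-KRAB-En5 libraries. It was thus near or at 0 in every dCas9-KRAB-En5 library. Its pooled share was 848-fold lower, with a counting interval of 290 to 4116 (adjusted p = 8.5e-05, edgeR). All 3 counts were in replicate 1, so without it no ratio can be given. *Unc45a*, the paralog found outside muscle as well, overlapped between groups at 3.57, 13.5 and 9.08 TPM against 5.51, 7.57 and 4.33 TPM, and did not pass the test (log2 fold change -0.68, SE 0.50, adjusted p = 0.368, edgeR).

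The ratio of *Unc45b* to *Unc45a* set the paralogs against each other within a library. In log2 of TPM plus 0.1 it was 0.22, -0.25 and -0.18 in dCas9-KRAB libraries, where both genes were at a like level, and -5.42, -6.26 and -5.47 in dCas9-KRAB-En5 libraries. The difference was -5.64, with no overlap (p = 0.1, the smallest that an exact permutation test of 3 against 3 allows, two-sided). With the same-numbered replicates paired, an exact sign-flip permutation test gave p = 0.25, again the smallest possible. With a pseudocount of 1 the difference was -2.65. In dCas9-KRAB-En5 replicates 2 and 3 *Unc45b* had 0 counts, so the ratio there is set by the pseudocount and *Unc45a*. As *Unc45b* passed the filter through dCas9-KRAB alone and had to differ, these p-values add no support.

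*Smyd1* (ENSMUSG00000055027, chromosome 6, 71213940 to 71322233) encodes a lysine methyltransferase of heart and skeletal muscle that acts with UNC45B and HSP90 on myosin. Its counts were 1646, 1573 and 1631 in dCas9-KRAB libraries (13.3, 9.25 and 8.01 TPM) and 3, 1 and 0 in dCas9-KRAB-En5 libraries. Among the members, it and *Unc45b* were the furthest reduced. The pooled ratio was 768 (counting interval 300 to 2820, adjusted p = 2.65e-05, edgeR). *Smyd2*, the paralog that methylates HSP90, stood at 22.8 ± 2.95 and 19.3 ± 11.3 TPM (SD, n = 3 per group) with a log2 fold change of -0.56 (adjusted p = 0.37, edgeR).

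*Hsp90aa1* (ENSMUSG00000021270, chromosome 12, 110690605 to 110702728) encodes HSP90α, the stress-inducible cytosolic HSP90. It was the only member whose mean was higher in dCas9-KRAB-En5 cells. Its levels were 7.98, 7.35 and 4.75 TPM in dCas9-KRAB libraries and 33.5, 22.5 and 3.36 TPM in dCas9-KRAB-En5 libraries. In TPM, replicates 1 and 2 of dCas9-KRAB-En5 were above all dCas9-KRAB libraries and replicate 3 below them all. On the TMM scale of the test, replicate 3 stood at 13.0 CPM, above dCas9-KRAB replicate 3 at 12.3 CPM. The log2 fold change of 1.15 (SE 0.55) did not pass the test (adjusted p = 0.168, edgeR). Without replicate 3 it was 1.47 (SE 0.39, adjusted p = 0.0123, edgeR), still short of the threshold, when 11.7% of all genes were called higher. Without replicate 1 it was 0.58 (adjusted p = 0.626, edgeR). Of its 50-base words, 47.5% recur elsewhere, mainly in the processed pseudogenes *Gm12346* and *Gm5844*, which held 429 and 109 counts in dCas9-KRAB-En5 libraries beside 4591 of *Hsp90aa1*. Its counts are therefore uncertain.

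*Hsp90ab1*, the constitutive HSP90β gene, was far more abundant than *Hsp90aa1*, at 387, 674 and 400 TPM in dCas9-KRAB libraries and 755, 1473 and 350 TPM in dCas9-KRAB-En5 libraries. It did not pass the test (log2 fold change 0.52, SE 0.48, adjusted p = 0.483, edgeR). The log2 ratio of *Hsp90aa1* to *Hsp90ab1* was -5.58, -6.50 and -6.36 in dCas9-KRAB libraries and -4.49, -6.02 and -6.66 in dCas9-KRAB-En5 libraries. The groups overlapped (difference 0.42, p = 0.7, exact permutation test, two-sided), and the difference turned to -0.19 without dCas9-KRAB-En5 replicate 1.

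**Figure D3:**
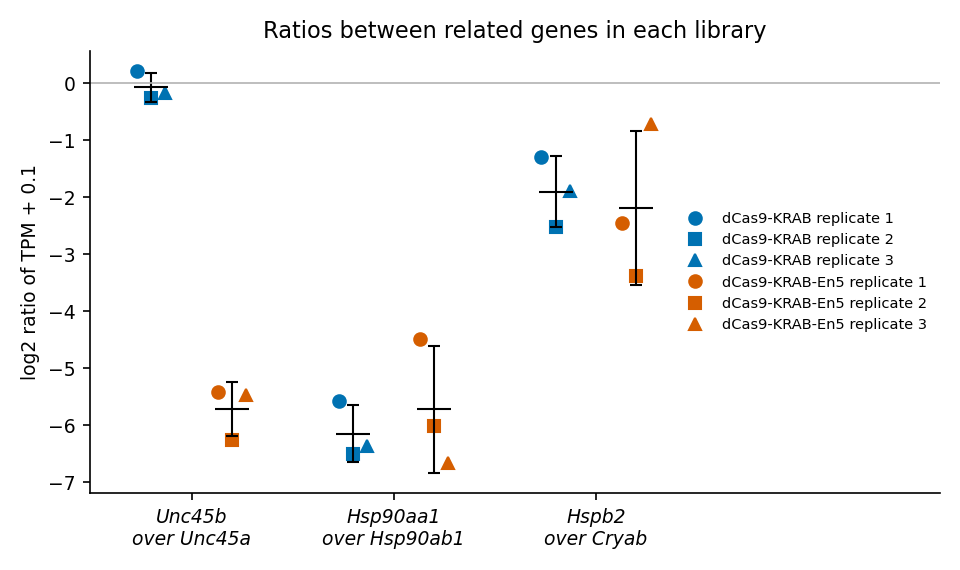
Log2 ratio of TPM plus 0.1 for 3 pairs of related genes; blue and orange symbols are the dCas9-KRAB and dCas9-KRAB-En5 libraries, and black bars are mean ± SD (n = 3 per group). *Unc45b* over *Unc45a* is separated by group (difference -5.64), while the other pairs overlap. *Unc45b* had 0 counts in dCas9-KRAB-En5 replicates 2 and 3, so its ratio there is set by the pseudocount and *Unc45a*.

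The order of the members by mean TPM in dCas9-KRAB cells was *Hspb1* (1081 ± 334), *Cryab* (412 ± 163), *Hspb2* (104 ± 5.46), *Hspb8* (96.5 ± 9.64), *Hspb6* (15.8 ± 7.05), *Smyd1* (10.2 ± 2.79), *Hspb7* (9.48 ± 5.23), *Unc45b* (7.82 ± 3.56), *Hsp90aa1* (6.69 ± 1.71) and *Hspb3* (0.62 ± 0.44; SD, n = 3). Library ranges overlapped between *Hspb2* and *Hspb8*, and between each neighbouring pair from *Hspb6* to *Hsp90aa1*. *Hspb1* led in dCas9-KRAB-En5 cells too, followed by *Hsp90aa1* (19.8 ± 15.2 TPM) and *Cryab* (13.3 ± 5.05 TPM), whose ranges overlapped. Within dCas9-KRAB cells, *Hspb1*, *Hspb6*, *Hspb7*, *Cryab* and *Unc45b* were lowest in replicate 1 and highest in replicate 2. *Hspb8*, *Smyd1* and *Hsp90aa1* instead were highest in replicate 1. The coefficient of variation ran from 5.24% for *Hspb2* to 70.9% for *Hspb3*.

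**Figure D4:**
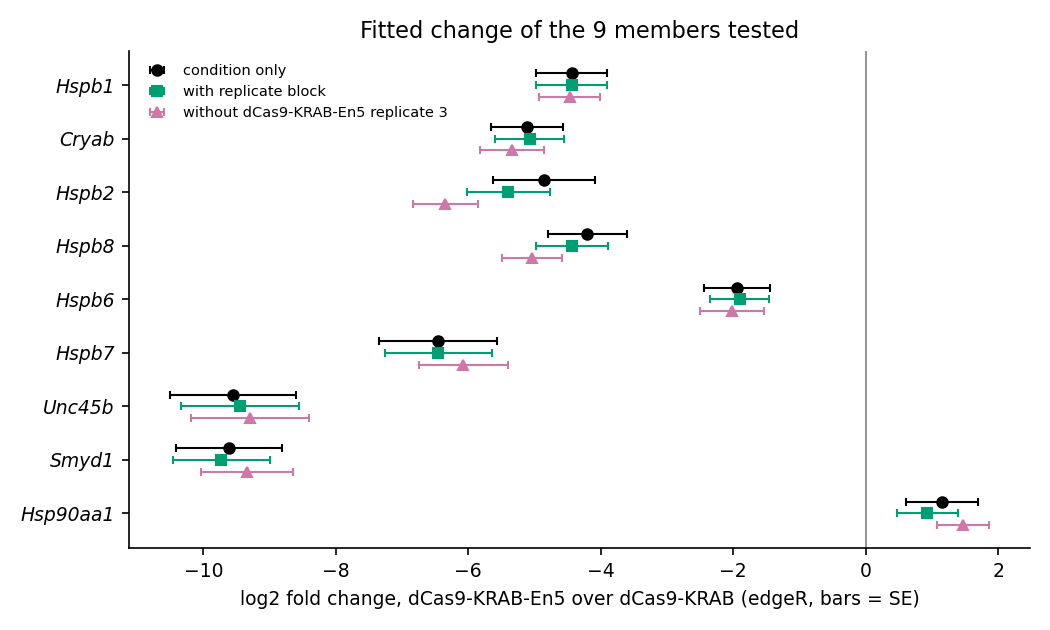
Log2 fold change (dCas9-KRAB-En5 over dCas9-KRAB) of the 9 members tested, from edgeR with condition only, with the replicate number as a block and without dCas9-KRAB-En5 replicate 3; bars are SE. *Smyd1* and *Unc45b* lie near -9.61 and -9.55, *Hspb6* near -1.94, and *Hsp90aa1* is the only member above 0 in these 3 fits.

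For each member, the genes with the most similar profile over the 6 libraries were found among the 7656 genes whose mean reached 10 CPM, by Pearson's r of log2(TPM + 0.1). These values describe 6 points that fall into 2 groups, and r exceeded 0.95 for between 8 and 653 genes per member. *Cryab* was most like *Atp2a1* (the sarcoplasmic reticulum calcium pump of fast fibres) and *Pdlim7*, and *Unc45b* like *Myod1* and *Ramp2*. *Casq2*, a calsequestrin gene of muscle, was among the genes most like *Smyd1*. *Hspb1* was most like *Acta1*, the skeletal muscle actin, and *Olfml2b*. *Hspb7* was most like *Psmb2* and *Trim72*, *Hspb2* like *Clec3b* and *Ly6c1*, *Hspb8* like *Pla2g16* and *Lsm10*, and *Hspb6* like *Wars* and *Cyb5r3*. *Hspb3*, at its few counts, was nearest to *Gm2619* and *Gm7392*. *Hsp90aa1* was most like *Sec63* and *Herc4*. The lowest of these correlations was 0.987.

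The sarcomeric proteins that these chaperones serve were set beside them. Of 10 client and partner genes, 7 were tested and 6 were called lower. Of these 7, *Actn2*, *Myh1* and *Myh8* had 4, 3 and 0 counts in the whole dCas9-KRAB-En5 group. They passed the filter through dCas9-KRAB alone and had to be higher there. *Ttn* had 0 counts in 1 dCas9-KRAB-En5 library and passed only with the help of dCas9-KRAB libraries, which favoured a difference. *Myh8* was the gene not called (adjusted p = 0.0161, edgeR). *Des*, *Flnc* and *Myh3* had at least 10 counts in every library and were called lower. *Myh3*, the embryonic myosin heavy chain, fell from 22.6 ± 13.0 to 0.133 ± 0.0613 TPM (log2 fold change -7.59, SE 0.61, adjusted p = 2.14e-05, edgeR). *Actn2*, the Z-disc α-actinin, fell from 3.10 ± 0.815 to 0.0187 ± 0.0164 TPM with 4 counts left (adjusted p = 0.00016, edgeR). *Flnc*, the filamin bound by HSPB7, fell from 33.8 ± 19.1 to 1.76 ± 0.528 TPM (log2 fold change -4.38, SE 0.54, adjusted p = 0.000382, edgeR).

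Chaperones outside the 10 members were described by the same test. Of 102 such genes in 10 lists, 99 were tested, 6 (6.06%) were called lower and 1 higher. Over all genes tested, 4.67% were called lower and 1.52% higher, so both counts lay near those shares. The median log2 fold change of these chaperones was 0.08, equal to that of all genes. Of 12 BAG proteins and selective autophagy partners, 3 fell. These were *Flnc*, *Map1lc3a*, an LC3 gene (1448 ± 58.1 to 72.7 ± 14.8 TPM, adjusted p = 0.00129, edgeR), and *Synpo2*, the scaffold of that pathway (1.42 ± 0.832 to 0.0526 ± 0.0518 TPM, adjusted p = 0.00385, edgeR). *Synpo2* had 38 counts in the whole dCas9-KRAB-En5 group and 0 TPM in its lowest library there. It passed the filter only with the help of dCas9-KRAB libraries, which favoured a difference. *Bag3* itself stood at 7.88, 31.5 and 21.1 TPM against 57.1, 62.6 and 15.8 TPM and did not pass (adjusted p = 0.256, edgeR).

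Among 15 genes of the HSP70 family, *Hspa4l*, an HSP110-type nucleotide exchange factor, rose from 0.539 ± 0.289 to 18.8 ± 17.4 TPM (log2 fold change 4.63, SE 0.87, adjusted p = 0.005, edgeR). Its libraries ran from 0.324 to 0.868 TPM in dCas9-KRAB and from 1.19 to 35.9 TPM in dCas9-KRAB-En5. Leaving out any single dCas9-KRAB replicate left 0 chaperones outside the members called higher, so this call was lost. *Hspa4l* was the only call in this list, where 5 genes were higher and 2 lower at an unadjusted p under 0.05 and DESeq2 called 4 higher and 2 lower. The share of all genes that DESeq2 called, or that had such a p, is not given here. *Hsph1*, an HSP110 gene, gained a call with the replicate block (log2 fold change 2.52, adjusted p = 0.00418, edgeR), and *Hspa1a*, *Hspa1b* and *Hsph1* without dCas9-KRAB-En5 replicate 3. These 3 genes and *Dnaja4* below were singled out after their values were seen. *Hspa8*, the constitutive HSC70, was higher in every dCas9-KRAB-En5 library (975, 883 and 465 TPM against 389, 333 and 349 TPM) but did not pass (adjusted p = 0.194, edgeR). Of 16 HSP90 paralogs and cochaperones, *Itgb1bp2*, the muscle CHORD-domain protein melusin, fell from 22.2 ± 1.92 to 0.0219 ± 0.0379 TPM, with 2 counts left (adjusted p = 2.88e-05, edgeR), and it too passed the filter through dCas9-KRAB alone. *Serpinh1*, the collagen chaperone, was 1 of 9 endoplasmic reticulum genes to fall (314 ± 86.6 to 29.3 ± 8.28 TPM, adjusted p = 0.00375, edgeR). *Hsf4* was 1 of 3 heat shock factors to fall (9.72 ± 5.26 to 1.07 ± 0.68 TPM, adjusted p = 0.00474, edgeR), whereas *Hsf1*, the main factor of the heat shock response, did not pass (14.3 ± 6.93 and 10.3 ± 2.55 TPM, adjusted p = 0.446, edgeR). No gene was called among 17 of the HSP40 family, 14 of the TRiC chaperonin and prefoldin, 8 mitochondrial chaperones and proteases and 4 SMYD methyltransferases. None was called in the list of other small heat shock proteins, where only *Hspb11*, listed by its symbol, was tested. At an unadjusted p under 0.05 in edgeR these lists held 3, 0, 2, 0 and 0 genes, and DESeq2 called 2, 0, 0, 0 and 0. With the replicate block, *Dnaja4* of the HSP40 family was called lower (log2 fold change -4.84, adjusted p = 0.00141, edgeR), as it was without dCas9-KRAB-En5 replicate 3. *Dnaja4* had 32 counts in the whole dCas9-KRAB-En5 group and 0 TPM in its lowest library there. It likewise passed the filter only with the help of dCas9-KRAB libraries. Without dCas9-KRAB-En5 replicate 3, 10 of the chaperone genes outside the members were called lower and 9 higher. In that fit 14.0% of all genes tested were called lower and 11.7% higher. The 8 markers of acute stress and the unfolded protein response summed to 682 to 782 TPM in dCas9-KRAB libraries and to 1389, 1242 and 261 TPM in dCas9-KRAB-En5 replicates 1, 2 and 3, the order also seen for *Hsp90aa1*. The members of that list were not alike. *Hmox1* was 47.5 to 101 TPM in dCas9-KRAB libraries and 624, 547 and 96.7 TPM in dCas9-KRAB-En5 libraries, whereas *Atf4* and *Ddit3* were lower in every dCas9-KRAB-En5 library. Their part in the levels of *Hsp90aa1* was not tested.

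**Figure D5:**
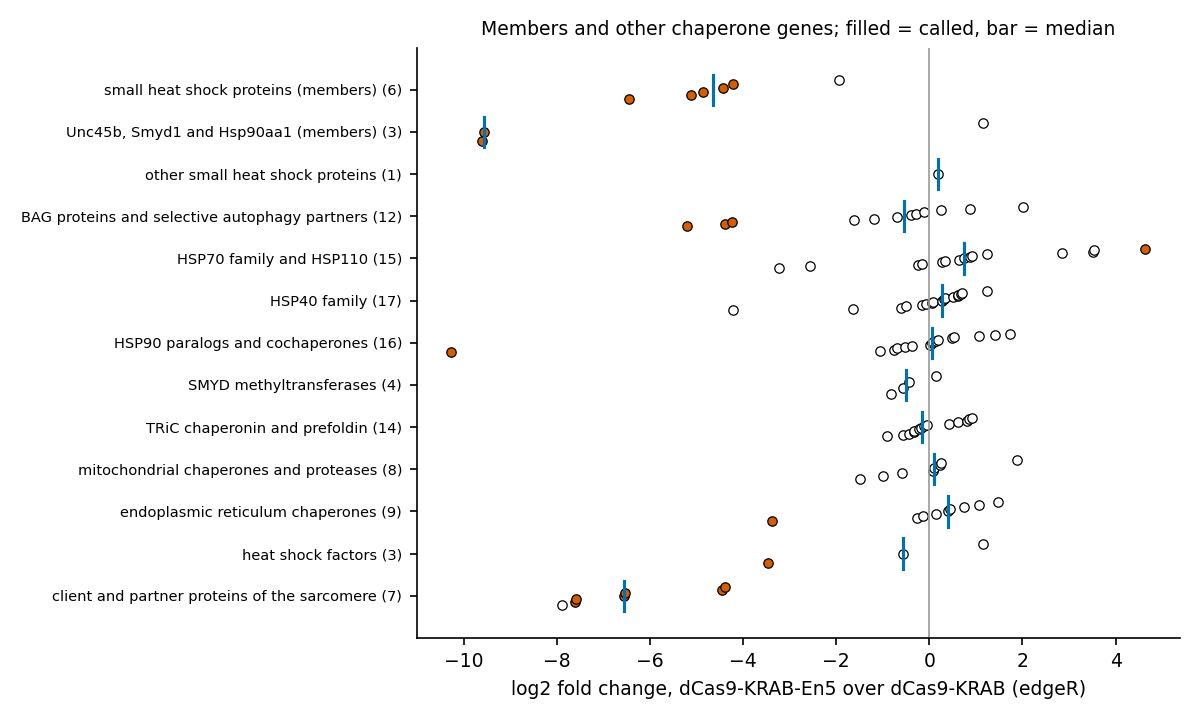
Log2 fold change (dCas9-KRAB-En5 over dCas9-KRAB, edgeR) of each tested gene, by list, with the number tested in parentheses; filled points were called and blue bars mark the list's median. The members and the sarcomeric clients lie mostly left of -1, several of them having passed the filter through dCas9-KRAB alone, while medians of the other chaperone lists lie between -0.56 (heat shock factors) and 0.74 (HSP70 family).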

How the data were processed

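Poly(A) RNA-Seq libraries (paired-end reads) had been aligned by the authors to GRCm38/mm10 with HISAT2 2.2.1 and counted per Ensembl gene with featureCounts, and each deposited file lists the count and the TPM of every gene with at least 1 count. TPM values were deposited as the authors computed them, and the annotation release, strand setting and treatment of multiply mapped reads are not given in the sources used here. Genes absent from a file were set to 0. Symbols and positions came from GENCODE vM21 (23155 of 23231 identifiers matched), and promoter sequences from RefSeq. Members and lists were chosen with earlier results of these data known. Named genes were the members, *Myog*, 6 paralogs and partners, up to 3 called genes per direction and list, and the 2 genes most like each member, of which 1 is not reported here.

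Counts were tested across all genes with edgeR 4.0.16 in R 4.3.3 (TMM scaling, filterByExpr with a minimum count of 10 and a minimum total of 15, quasi-likelihood test, condition as the only term, Benjamini-Hochberg adjustment over 14378 genes). DESeq2 1.42.0 and limma 3.58.1 were alternatives. The code of the fit was also run on simulated counts with the same spread for all genes and no outlying or paired replicates. That run checks the code and does not show how the fit behaves on these data. Pooled ratios used library sizes scaled by TMM, and their exact intervals, like the depth, cover counting error only. A pseudocount of 0.1 TPM was used for ratios and similarity. Replicates of a group differed by more than sampling noise (chi-square per degree of freedom at least 110.2). Deviations of same-numbered replicates correlated at 0.26, 0.21 and 0.29 and those of other pairs at -0.34 to -0.05. Deviations sum to 0 within a group, so positive values for same-numbered pairs force negative ones elsewhere. The labels give the numbers without saying that they mark pairs. Results with condition as the only term leave such a pairing out, and those with the replicate block take it in.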

Additional observations from a re-analysis of the deposited data

How the results depend on the processing

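Of 145 alternative values of the members' log2 fold changes, none changed sign, 138 kept their side of the threshold, 2 lost their call (*Hspb2* and *Hspb8* without dCas9-KRAB replicate 1) and 5 gained one, all of them *Hspb6* (no filter, replicate block, DESeq2, an adjusted p of at most 0.05, and without dCas9-KRAB-En5 replicate 3). The replicate block changed no other call among the members, and added *Dnaja4* (lower) and *Hsph1* (higher) among the other chaperones. Values at an adjusted p of at most 0.05 reused the main fit, so their signs could not change. *Unc45b* and *Smyd1* passed the filter through dCas9-KRAB alone, so theirs were also fixed. *Hspb3* was not in the main fit, and its 4 values were set against its unfiltered fit. The members called lower numbered 5 to 8 when single replicates were left out, 5 of them without dCas9-KRAB replicate 1, and 4 with at least 10 counts required in every library, where 3 of the 7 were not tested. Other chaperone genes called lower numbered 3 to 10 over single replicates left out and 11 with DESeq2. Those called higher numbered 0 to 9 over single replicates left out, 0 with library totals only and with limma, 5 without the low-count filter, 2 with the replicate block and 4 with DESeq2 or at an adjusted p of at most 0.05. The 10 and the 9 came without dCas9-KRAB-En5 replicate 3, where 14.0% of all genes were called lower and 11.7% higher. For DESeq2, limma, library totals, no filter, the looser adjusted p and the other replicates left out, the share of all genes called is not given here. Those counts therefore have no background beside them. The cause of these shifts was not tested. The difference between groups (dCas9-KRAB-En5 minus dCas9-KRAB) in the log2 ratio of *Hsp90aa1* to *Hsp90ab1* ran from -0.19 to 0.89 over single replicates left out. For the ratio of *Hspb2* to *Cryab* this difference ran from -1.02 to 0.31, and was 0.0309 at a pseudocount of 1. The median of all genes shifted between -0.05 and 0.18 over the scalings, filters, tools and replicates tried. With 3 libraries per group, the whole dCas9-KRAB-En5 group held 1 to 4 counts each of *Unc45b*, *Smyd1* and *Hspb3*. Their folds are known at best to within the intervals given, which cover counting error only. Replicates differed by more than that error.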
